A study of Mus musculus with 6 samples.

Results

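The Hox cluster genes were measured by RNA-seq in mouse kidney cortex, in 3 libraries from PT-I-PpoI mice, which express the endonuclease I-PpoI in proximal tubular epithelial cells, and in 3 libraries from wild type mice. I-PpoI is a homing endonuclease that leaves double-strand breaks in DNA. The promoter that drives it, the strain, sex and age of the mice and the number of mice per library are not given in the sources used here, and the transgene itself was not analysed here. The members were all genes of the count table named Hox followed by a cluster letter and a number, 39 of 24421 genes, with 11 in HoxA (chromosome 6), 10 in HoxB (chromosome 11), 9 in HoxC (chromosome 15) and 9 in HoxD (chromosome 2). Nothing in the labels says that each library came from its own animal, and the p-values therefore cover only library-to-library spread, which may be technical.

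Hox genes encode transcription factors that bind DNA through a homeodomain and give cells their position along the body axis of the embryo. They lie side by side in clusters, where the order of the genes follows the order of their expression, from group 1 at the anterior (3′) end to group 13 at the posterior (5′) end. Genes with the same number in different clusters are paralogues, descended from 1 ancestral gene. In the mouse, the group 11 paralogues are together required for the kidney to form, the group 10 paralogues pattern the kidney stroma, and Hoxb7 marks the ureteric bud, which gives rise to the collecting ducts. Adult kidney keeps expressing many of these genes.

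Library totals were 14290109 to 18045335 read pairs in the PT-I-PpoI group and 13582540 to 20861021 read pairs in the wild type group. A count of 0 in a library thus allows a level of up to 0.144 to 0.227 CPM (counts scaled to library total), the equivalent of 3 read pairs, counting error only. In the names of some libraries the number at the end follows a hyphen: replicate 3 of PT-I-PpoI and replicates 2 and 3 of the wild type group. The libraries separated by this name form along the first principal component, from -30.2 to -0.539 without a hyphen and from 11.8 to 21.5 with one. The labels do not call it a batch, and differences within each form are given beside the pooled ones. Proximal tubule markers summed to 31818 to 50344 CPM in the PT-I-PpoI libraries, against 44209 to 53458 CPM in wild type, and none of the 14 was at 0.

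Kidney cortex held RNA of every Hox group from 2 to 11, and no read pair of groups 12 and 13 was counted at this depth. Of the 39 genes, 7 had a count of 0 in all 6 libraries. These were Hoxb1 at the anterior end of its cluster and 6 genes at the posterior ends, namely Hoxa13, Hoxb13, Hoxc12, Hoxc13, Hoxd12 and Hoxd13. Hoxd1 had 1 read pair over all libraries and Hoxc11 had 37, and these 9 genes were too low for the filter on low counts. The other 30 were tested, 10 in HoxA, 8 in HoxB, 6 in HoxC and 6 in HoxD. In mouse embryos groups 12 and 13 are known for the most posterior structures, such as the digits and the genital tubercle.

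Levels are compared between genes as CPM per kilobase of exon not shared with another gene (CPM per kb), averaged over the 6 libraries. The central and upper posterior genes were the most abundant. Hoxd8 was first at 65.2 CPM per kb, at the 90.7th percentile of all tested genes per length. After it came Hoxb6 at 30.7, Hoxd9 at 27.7, Hoxb7 at 27.6 and Hoxa9 at 19.3 CPM per kb, and these 5 genes held 46.7% of the summed Hox level. Summed over clusters, group 8 was highest at 86.2 CPM per kb, followed by group 9 at 66.6, group 6 at 45.1, group 7 at 44.7 and group 10 at 41.9. Group 11 summed to only 2.37 CPM per kb. Groups 2 to 5 were at 16.4 to 21.9 CPM per kb.

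**Figure D1:**
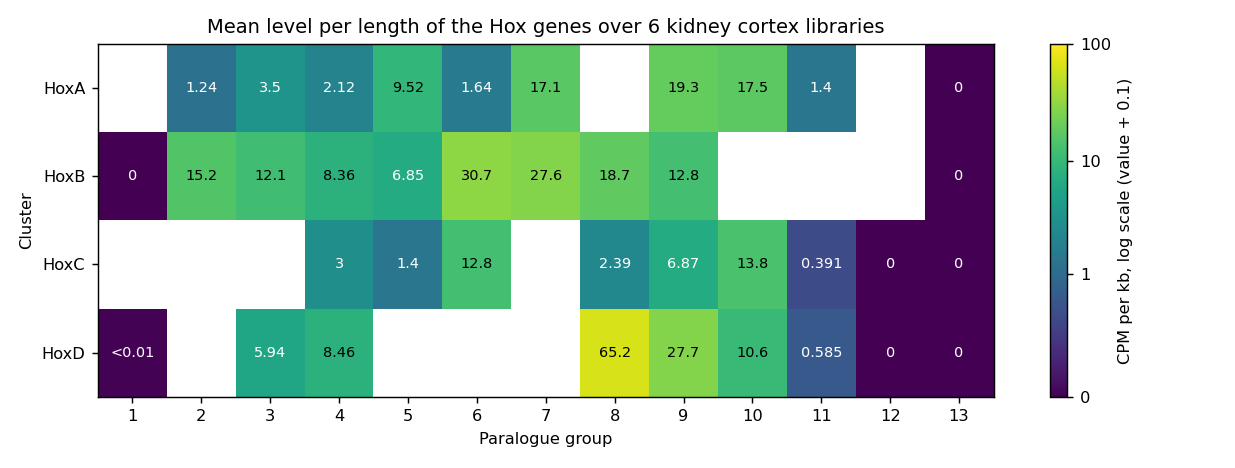
Mean level of the Hox genes in CPM per kb of unshared exon over the 6 libraries (colour on a log scale after adding 0.1, values in the cells), with clusters as rows and paralogue groups as columns. White cells are positions with no gene in that cluster or not shown. The high values lie in groups 6 to 10, and groups 12 and 13 are at 0 in every cluster.

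Paralogues with the same number differed in level. In group 8, Hoxd8 was at 65.2 CPM per kb, Hoxb8 at 18.7 and Hoxc8 at 2.39. In group 11, Hoxa11 was at 1.40, Hoxd11 at 0.585 and Hoxc11 at 0.391 CPM per kb. Group 9 was more even, with 27.7 for Hoxd9, 19.3 for Hoxa9, 12.8 for Hoxb9 and 6.87 CPM per kb for Hoxc9. By cluster, HoxB held 36.2% of the summed level and HoxD 32.4%, against 20.3% for HoxA and 11.1% for HoxC. Within HoxA the anterior genes Hoxa2 to Hoxa4 were at 1.24 to 3.50 CPM per kb, while the anterior HoxB genes Hoxb2 to Hoxb4 were at 8.36 to 15.2 CPM per kb. Only Hoxa3 and Hoxa11 share exon sequence with other genes of the table, Hoxaas2 and Hoxaas3 for the first and Hoxa11os for the second.

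Promoter windows of 250 bases upstream of the start were found in RefSeq (GRCm38.p6, the build that matched the table's coordinates for 39 of 39 genes) for 22 of the 39 genes. 3 are shown because they cover the range of levels: the most abundant gene, a gene whose groups did not overlap, and a gene at 0. Hoxd8 is at chr2:74704365-74704614, Hoxb8 at chr11:96281655-96281904 and Hoxd13 at chr2:74667975-74668224, all on the + strand. Capitals mark TATAAA, the core of a TATA box, and TGATNNAT, a site bound by Hox proteins with their Pbx partners, on either strand.
Hoxd8: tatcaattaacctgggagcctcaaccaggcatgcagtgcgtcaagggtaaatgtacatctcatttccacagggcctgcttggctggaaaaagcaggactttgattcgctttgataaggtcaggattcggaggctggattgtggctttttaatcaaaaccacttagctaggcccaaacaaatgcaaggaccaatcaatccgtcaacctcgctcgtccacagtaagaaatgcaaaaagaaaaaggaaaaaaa
Hoxb8: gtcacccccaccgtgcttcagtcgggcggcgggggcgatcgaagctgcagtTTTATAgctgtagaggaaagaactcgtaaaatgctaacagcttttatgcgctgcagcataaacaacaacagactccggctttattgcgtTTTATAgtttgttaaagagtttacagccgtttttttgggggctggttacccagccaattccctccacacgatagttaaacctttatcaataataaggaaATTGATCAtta
Hoxd13: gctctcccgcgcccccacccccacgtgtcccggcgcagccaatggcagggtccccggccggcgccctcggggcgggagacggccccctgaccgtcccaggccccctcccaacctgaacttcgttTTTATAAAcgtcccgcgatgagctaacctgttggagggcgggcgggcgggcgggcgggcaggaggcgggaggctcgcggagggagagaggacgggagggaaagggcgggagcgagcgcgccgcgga
The Hoxd8 window holds neither motif, the Hoxb8 window holds TATAAA at 2 places and TGATNNAT at 1, and the Hoxd13 window holds TATAAA on both strands at overlapping positions. TATAAA occurred in 3 of the 22 windows, against 12.4% of 32841 windows of all genes, and TGATNNAT in 3, against 7.69%. A match is a description of the letters and shows no binding. Hoxd13, at a count of 0, had a window with 74.4% G and C and 31 CpG, and the abundant Hoxd8 had one with 44.4% and 6 CpG. In the 5 windows of genes too low to test G and C ran from 55.6% to 80.0%, and in the 17 windows of tested genes from 40.4% to 65.6%. The CpG count over that expected from C and G ran from 0.32 to 0.90 in the first and from 0.16 to 1.11 in the second. These ranges overlapped.

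None of the 30 tested Hox genes passed when PT-I-PpoI was compared with wild type (edgeR's quasi-likelihood test, Benjamini-Hochberg adjustment over 13977 genes, threshold 0.05), where 0.136% of all genes tested did, all of them higher. The smallest adjusted p among the Hox genes was 0.182 (edgeR). Log2 fold changes ran from -0.23 to 0.64 with a median of 0.24, beside a median of 0.0004 over all tested genes. They lay above 0 for 23 genes (76.7%) and below 0 for 7, where 50.1% of all genes lay above 0. At an unadjusted p under 0.05 there were 8 genes higher and 0 lower, with 6.42% of all genes higher and 5.61% lower at this level. In bulk tissue, fewer cells of a type and less RNA per cell cannot be told apart.

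The groups did not overlap for 8 of the 30 genes. PT-I-PpoI was above wild type in every library for 6 of them (20.0%, against 9.23% of all genes tested), which were Hoxb5, Hoxb6, Hoxb8, Hoxb9, Hoxc6 and Hoxd10. It was below wild type in every library for Hoxa9 and Hoxa10 (6.67%, against 7.74%). All 8 tested HoxB genes and all 6 tested HoxC genes had fold changes above 0, with median log2 fold changes of 0.30 and 0.32. In HoxD 5 of 6 were above 0 (median 0.28), and in HoxA 4 of 10 (median -0.05). Differences between clusters were not tested.

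**Figure D2:**
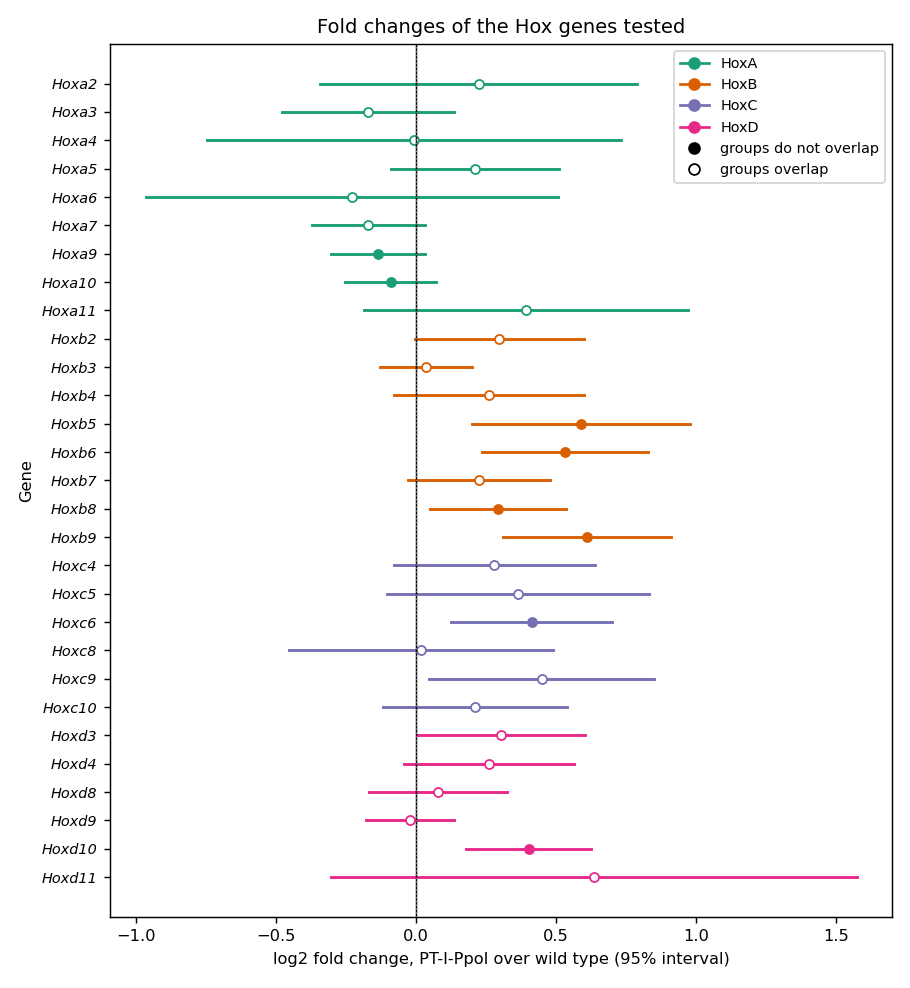
Log2 fold change of PT-I-PpoI over wild type for 29 of the 30 tested Hox genes (points) with 95% intervals from edgeR (lines), ordered by cluster and group. Filled points are genes whose 3 PT-I-PpoI libraries do not overlap the 3 wild type libraries. The HoxB and HoxC points lie right of 0, and the widest intervals are those of Hoxd11, Hoxa4 and Hoxa6.

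Of the 6 genes whose PT-I-PpoI libraries all lay above wild type, 4 were HoxB genes. Hoxb9, with the lowest p-value of the Hox genes and the most posterior HoxB gene with counts (chromosome 11, 96271330 to 96276593, mm10, as for all positions from the table), was at 44.5, 47.4 and 32.8 CPM in the PT-I-PpoI libraries, against 27.2, 26.7 and 27.8 CPM in wild type. Replicate 3 of PT-I-PpoI was much nearer to wild type than replicates 1 and 2, but the groups did not overlap. The log2 fold change was 0.61 ± 0.13 (SE; 95% interval 0.31 to 0.91; edgeR adjusted p = 0.182). Hoxb6 (chromosome 11, 96299171 to 96301569) was at 54.7, 51.0 and 38.0 CPM in the PT-I-PpoI libraries, against 31.7, 34.3 and 33.5 CPM in wild type, with replicate 3 again the lowest of its group. Its log2 fold change was 0.53 ± 0.13 (SE; 95% interval 0.24 to 0.83; edgeR adjusted p = 0.201).

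Hoxb5 (chromosome 11, 96303512 to 96306121), which takes part in patterning the lung and gut in the mouse, was at 18.0, 16.9 and 11.7 CPM in the PT-I-PpoI libraries, against 9.63, 11.5 and 10.1 CPM in wild type. Here the lowest PT-I-PpoI library and the highest wild type library almost touched. The log2 fold change was 0.59 ± 0.17 (SE; edgeR adjusted p = 0.267). Hoxb8 was at 61.1, 55.9 and 45.9 CPM in the PT-I-PpoI libraries, against 42.9, 45.1 and 45.1 CPM in wild type, a log2 fold change of 0.29 ± 0.11 (SE; edgeR adjusted p = 0.354). Hoxb7, of the ureteric bud, was at 38.8, 42.6 and 31.7 CPM in the PT-I-PpoI libraries, against 33.1, 32.9 and 31.0 CPM in wild type, and its groups overlapped. Its 95% interval on the log2 scale ran from -0.03 to 0.48. The anterior HoxB genes Hoxb2, Hoxb3 and Hoxb4 had log2 fold changes of 0.30 ± 0.13, 0.04 ± 0.07 and 0.26 ± 0.15 (SE), each with overlapping groups.

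In all 8 tested HoxB genes the lowest PT-I-PpoI library was replicate 3, the library with a hyphen in its name, as it was for 20 of the 30 Hox genes. The share of all tested genes with replicate 3 lowest was not counted. Over all tested genes this library lay apart from replicates 1 and 2 along the first principal component. The summed HoxB level was 160, 161 and 123 CPM per kb in the PT-I-PpoI libraries, against 116, 118 and 115 CPM per kb in wild type. The wild type sums were thus nearly equal, but only 1 wild type library has a name without a hyphen. By gene, wild type replicates 1, 2 and 3 were at 25.6, 21.7 and 19.2 CPM for Hoxb2. For Hoxb3 they were at 43.0, 45.0 and 45.1 CPM. Within libraries without a hyphen the log2 difference was 0.74 for Hoxb9, 0.73 for Hoxb6, 0.83 for Hoxb5 and 0.44 for Hoxb8. Within those with one it was 0.26 for Hoxb9, 0.16 for Hoxb6, 0.11 for Hoxb5 and only 0.03 for Hoxb8. These 4 genes have groups that do not overlap, which fixes the sign within each form. Of the HoxB genes with overlapping groups, Hoxb2 was at 0.18 without a hyphen and 0.21 with one, Hoxb3 at 0.11 and -0.05, Hoxb4 at 0.52 and -0.13, and Hoxb7 at 0.29 and -0.01. Each value rests on 1 library of 1 of the groups. Over the 30 Hox genes the median difference was 0.18 without a hyphen and 0.03 with one, beside -0.0046 and 0.0015 over all tested genes. In edgeR with a term for the name form, 0 Hox genes passed (0.458% of all genes did). Without PT-I-PpoI replicate 3, edgeR called 5 Hox genes higher (16.7%) and 0 lower, against 1.84% of all genes higher, 2.56% lower and 4.4% in either direction. They were Hoxb5, Hoxb6, Hoxb8, Hoxb9 and Hoxc9. DESeq2 on all 6 libraries called Hoxb9 (adjusted p = 0.0124) and Hoxb6 (adjusted p = 0.0418) higher, 6.67% of the Hox genes against 0.898% of all genes, or 1.32% in either direction.

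**Figure D3:**
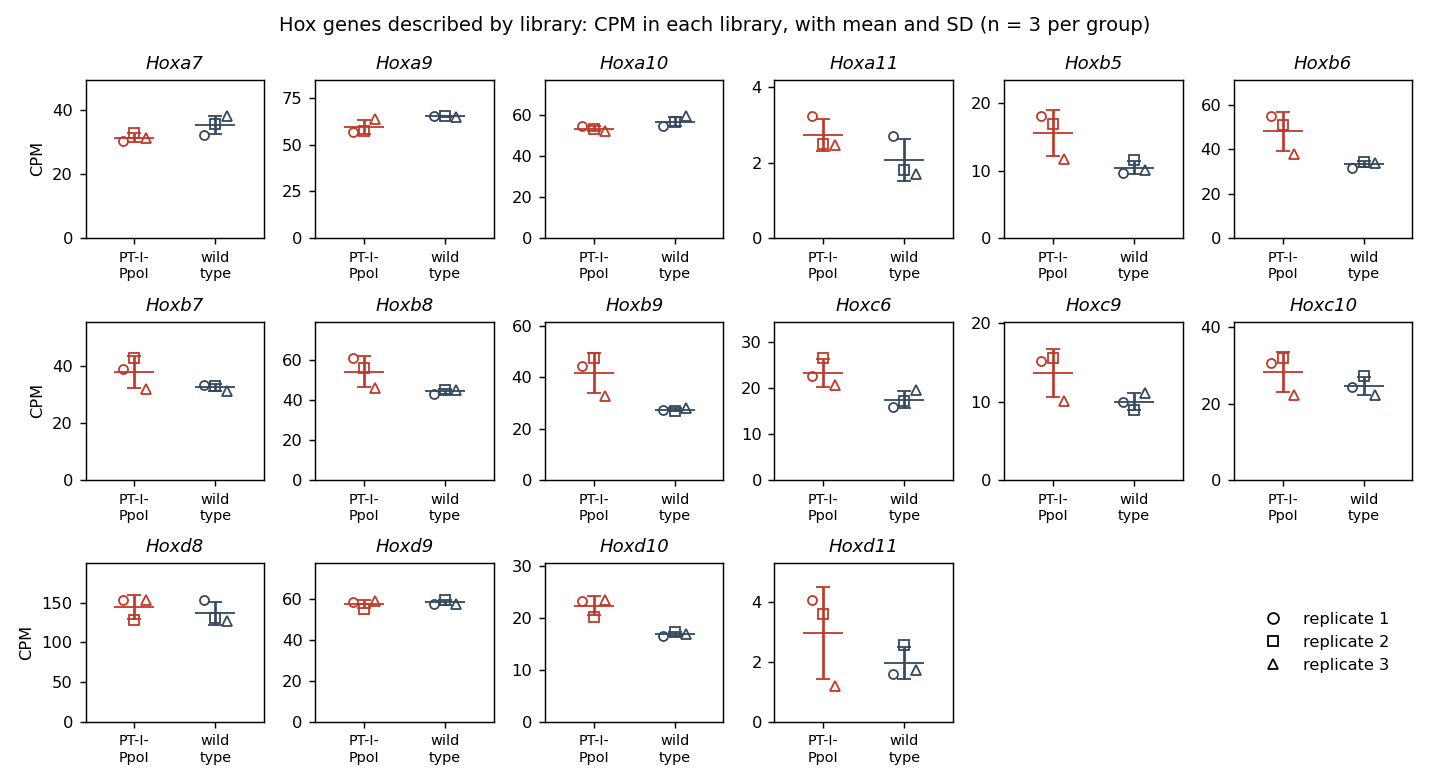
CPM in each library (open symbols, one shape per replicate number) with the mean and SD of each group (n = 3) for the 16 Hox genes described by library, PT-I-PpoI left of wild type. In the HoxB panels the replicate 3 triangle of PT-I-PpoI lies below the other 2 libraries of that group, while in Hoxd10 all 3 lie together above wild type.

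Hoxd10 (chromosome 2, 74691891 to 74695106), a group 10 gene, differed from the HoxB genes in that replicate 3 was not its lowest PT-I-PpoI library. It was at 23.3, 20.2 and 23.5 CPM in the PT-I-PpoI libraries, against 16.6, 17.2 and 16.9 CPM in wild type. The log2 fold change was 0.40 ± 0.10 (SE; 95% interval 0.18 to 0.63; edgeR adjusted p = 0.201), and the log2 difference was 0.38 among names without a hyphen and 0.45 among names with one. The neighbouring genes overlapped between the groups. Hoxd9 was at 58.6, 55.5 and 59.0 CPM in the PT-I-PpoI libraries, against 57.8, 59.7 and 57.9 CPM in wild type, with a 95% interval on the log2 scale from -0.18 to 0.14. Hoxd8 (chromosome 2, 74704615 to 74707932) was at 153, 128 and 153 CPM in the PT-I-PpoI libraries, against 154, 131 and 126 CPM in wild type. Both groups held high and low libraries, and the interval ran from -0.17 to 0.33. Of the anterior HoxD genes, Hoxd3 had a log2 fold change of 0.30 ± 0.13 and Hoxd4 one of 0.26 ± 0.13 (SE), with overlapping groups.

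In HoxC, Hoxc6 (chromosome 15, 103009562 to 103011881), a thoracic group gene, was at 22.4, 26.4 and 20.7 CPM in the PT-I-PpoI libraries, against 15.7, 17.1 and 19.4 CPM in wild type. The groups lay apart, with a log2 fold change of 0.41 ± 0.13 (SE; 95% interval 0.13 to 0.70; edgeR adjusted p = 0.289). Hoxc9 was at 15.2, 15.6 and 10.1 CPM in the PT-I-PpoI libraries, against 9.97, 8.93 and 11.1 CPM in wild type, so that PT-I-PpoI replicate 3 lay among the wild type values. Hoxc10, a paralogue of Hoxd10, was at 30.6, 31.9 and 22.3 CPM in the PT-I-PpoI libraries, against 24.3, 27.1 and 22.3 CPM in wild type, with the same replicate at the lower end. Their 95% intervals on the log2 scale ran from 0.05 to 0.85 for Hoxc9 and from -0.12 to 0.54 for Hoxc10. Hoxc4, Hoxc5 and Hoxc8 had log2 fold changes of 0.28 ± 0.16, 0.36 ± 0.21 and 0.02 ± 0.21 (SE).

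The abundant HoxA genes had fold changes slightly below 0. Hoxa9 (chromosome 6, 52223097 to 52227370), a regulator of blood progenitors as well as of axial position, was at 56.9, 57.6 and 63.6 CPM in the PT-I-PpoI libraries, against 65.2, 65.3 and 65.1 CPM in wild type. The groups did not overlap, but the log2 fold change was only -0.13 ± 0.07 (SE; 95% interval -0.30 to 0.03; edgeR adjusted p = 0.483). Hoxa10 was at 54.4, 53.3 and 52.2 CPM in the PT-I-PpoI libraries, against 54.6, 56.3 and 59.3 CPM in wild type, with groups that almost touched and an interval from -0.25 to 0.07. Hoxa7 was at 30.2, 32.7 and 31.1 CPM in the PT-I-PpoI libraries, against 32.1, 35.7 and 38.0 CPM in wild type (interval -0.37 to 0.03). Hoxa2 to Hoxa6 all overlapped between the groups, with log2 fold changes from -0.23 for Hoxa6 to 0.22 for Hoxa2.

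The group 11 genes, required for kidney formation in the mouse, were the least abundant of the posterior genes tested. Hoxa11 was at 3.23, 2.48 and 2.48 CPM in the PT-I-PpoI libraries, against 2.70, 1.82 and 1.69 CPM in wild type, a log2 fold change of 0.39 ± 0.25 (SE). Hoxd11 was at 4.07, 3.59 and 1.20 CPM in the PT-I-PpoI libraries, against 1.59, 2.57 and 1.74 CPM in wild type. Its log2 fold change was 0.64, with the widest interval of the Hox genes, from -0.30 to 1.58, and it was 0.33 without PT-I-PpoI replicate 1 and 0.99 without PT-I-PpoI replicate 3. Both genes overlapped between the groups. Hoxc11 had counts of 8, 8 and 5 in PT-I-PpoI and 1, 5 and 10 in wild type and was not tested.

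Of the other genes of the table that lie wholly inside a cluster, a set added after values were seen, 8 of 18 were tested and 0 passed. They include the microRNA genes of the miR-196 and miR-10 families. In the mouse miR-196 is known to direct cleavage of the Hoxb8 mRNA. The mature 5p forms in RefSeq (GRCm38.p6) are shown with the seed, bases 2 to 8 from the 5′ end, in capitals, because the 4 fall into 2 seed families that recur across clusters.
mmu-miR-196a-5p: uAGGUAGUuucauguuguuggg
mmu-miR-196b-5p: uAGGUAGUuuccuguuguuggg
mmu-miR-10a-5p: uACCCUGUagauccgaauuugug
mmu-miR-10b-5p: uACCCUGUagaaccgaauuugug
Both miR-196 forms share the seed AGGUAGU and both miR-10 forms the seed ACCCUGU. The libraries were made for mRNA, so counts over a hairpin come from longer transcripts and say nothing of the mature microRNA. Mir196a-1, which lies between Hoxb13 and Hoxb9 (chromosome 11, 96265164 to 96265265, + strand), was at 4.39, 6.29 and 1.91 CPM in the PT-I-PpoI libraries, against 3.90, 2.57 and 2.54 CPM in wild type. Gm53, a predicted gene just before it (chromosome 11, 96251660 to 96264484), was at 21.9, 21.6 and 14.7 CPM in the PT-I-PpoI libraries, against 9.16 to 15.9 CPM in wild type (log2 fold change 0.64 ± 0.22, SE; edgeR adjusted p = 0.330). As in the HoxB genes downstream, replicate 3 was the lowest PT-I-PpoI library for both. In HoxA, the noncoding Mira next to Hoxa7 was at 46.1 to 48.5 CPM in the PT-I-PpoI libraries, against 48.2 to 50.8 CPM in wild type. Hotair, transcribed from HoxC, had 0 to 4 read pairs per library. In this set of 8 tested genes only the groups of Haglr in HoxD did not overlap, against 17% of all genes tested. It was at 2.38, 3.48 and 3.33 CPM in the PT-I-PpoI libraries, against 2.36, 2.12 and 1.99 CPM in wild type. Its log2 fold change was 0.50 ± 0.22 (SE; edgeR adjusted p = 0.420).

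RNA of genes whose proteins work with Hox factors was counted beside that of the Hox genes. All 9 genes of the TALE class, the Pbx, Meis and Pknox homeodomain cofactors, were tested and 0 passed, with 4 above and 5 below 0 and a median log2 fold change of -0.03. The smallest p-values were those of Meis3, at 3.19 ± 0.26 CPM in the PT-I-PpoI libraries, against 2.34 ± 0.35 CPM in wild type, and Pknox2, at 2.68 ± 0.39 CPM in PT-I-PpoI libraries, against 1.81 ± 0.61 CPM in wild type (SD, n = 3 each). Of 14 activators of Hox transcription, 11 were tested and 0 passed (median -0.02), and Cdx1 and Cdx2, which switch on Hox genes in the posterior embryo, were at 0 counts. Rarg, a retinoic acid receptor, was at 32.2 ± 5.10 CPM in the PT-I-PpoI libraries, against 20.6 ± 0.34 CPM in wild type, without overlap (log2 fold change 0.65 ± 0.12, SE; edgeR adjusted p = 0.108). Rara, its relative, was at 20.7 ± 2.03 CPM in the PT-I-PpoI libraries, against 24.6 ± 3.67 CPM in wild type.

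Polycomb proteins keep unused Hox genes silent. All 17 listed genes were tested, 0 passed, and 9 lay above and 8 below 0 (median 0.02). Kdm2b, which brings a Polycomb complex to CpG-rich DNA, was at 21.1 ± 1.71 CPM in the PT-I-PpoI libraries, against 16.3 ± 1.36 CPM in wild type, and Rnf2, a ubiquitin ligase of the same complexes, at 21.4 ± 2.39 CPM in PT-I-PpoI libraries, against 25.9 ± 0.48 CPM in wild type (SD, n = 3 each). Of the genes that flank the clusters, 10 were tested and 0 passed (3 above and 7 below 0, median -0.02), led by Lnp beyond HoxD at 7.37 ± 1.09 CPM in the PT-I-PpoI libraries, against 9.61 ± 0.42 CPM in wild type, and Skap1 beyond HoxB at 1.78 ± 0.92 CPM in PT-I-PpoI libraries, against 1.09 ± 0.19 CPM in wild type. Evx1 and Evx2, the homeobox genes next to HoxA and HoxD, were at 0. Of 5 genes of the Hox11 pathway in the mouse metanephros, Six2 was at 0 and Gdnf and Eya1 were too low to test. Pax2 was at 28.3 ± 0.11 CPM in the PT-I-PpoI libraries, against 24.7 ± 3.22 CPM in wild type, and Itga8 at 9.55 ± 0.40 CPM in PT-I-PpoI libraries, against 10.2 ± 1.14 CPM in wild type. Among 31 tested transcription factors of the kidney 0 passed (22 above and 9 below 0, median 0.13), with Hmx2 at 15.4 ± 3.27 CPM in the PT-I-PpoI libraries, against 9.12 ± 0.79 CPM in wild type and Foxc1 at 16.9 ± 3.19 CPM in PT-I-PpoI libraries, against 10.3 ± 0.95 CPM in wild type.

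Markers of other nephron segments were counted in the same libraries, in lists chosen with earlier results of these data known. Of all genes tested, 50.1% lay above 0 and 0.136% were called. All 15 collecting duct markers had fold changes above 0 (median log2 fold change 0.30), and 2 rose, Avpr2 and Aqp4 (edgeR adjusted p = 0.0385 and 0.0496). Their summed level was 1531 to 1623 CPM in the PT-I-PpoI libraries, against 1137 to 1221 CPM in wild type. All 8 tested thick ascending limb markers lay above 0 (median 0.44), and 2 rose, Ptger3 and Tmem207 (edgeR adjusted p = 0.0356 for both), with sums of 7605 to 7832 CPM in the PT-I-PpoI libraries, against 5359 to 6131 CPM in wild type. All 4 calls were lost with limma on the rlog values and when replicate 1 or 2 of PT-I-PpoI or replicate 1 or 3 of the wild type group was left out. Without wild type replicate 2 only Ptger3 kept its call. Over the libraries left out, the edgeR adjusted p ran from 0.0114 to 0.189 for Avpr2, from 0.0114 to 0.324 for Aqp4, from 0.00997 to 0.166 for Ptger3 and from 0.00539 to 0.276 for Tmem207. Aqp4 also lost its call with DESeq2 size factors in edgeR (adjusted p = 0.0517), upper-quartile factors (0.0560), a minimum of 1 CPM in 3 libraries (0.0520) and limma-voom (0.0512). Inner medulla markers summed to 668 to 782 CPM in the PT-I-PpoI libraries, against 572 to 836 CPM in wild type, with 5 of 6 tested genes above 0 (median 1.25) and 0 passing. Slc6a6, a taurine transporter, made up 73.9% of this sum, and it was the tested marker below 0, at 544, 449 and 489 CPM in the PT-I-PpoI libraries, against 756, 436 and 441 CPM in wild type. For the other 5 tested markers the groups did not overlap, with PT-I-PpoI higher, as for 9.23% of all genes tested. Slc14a2, which carries urea, was at 90.4 ± 11.1 CPM in the PT-I-PpoI libraries, against 18.5 ± 11.4 CPM in wild type, and Fst, follistatin, at 10.1 ± 2.36 CPM in PT-I-PpoI libraries, against 3.49 ± 0.80 CPM in wild type (SD, n = 3 each). Akr1b3 was the only inner medulla marker with a count of 0, for a reason that was not tested. None of the listed collecting duct or thick ascending limb markers was at 0.

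Replicate 3 of PT-I-PpoI, the lowest of its group for HoxB, had the highest collecting duct sum of all 6 libraries. It was at 1623 CPM, against 1577 and 1531 CPM in the other PT-I-PpoI libraries. Single markers went both ways. Across the PT-I-PpoI replicates in order, Aqp2, 19.2% of the collecting duct sum, was at 352, 249 and 407 CPM. Its spread over these libraries was wider than that of the sum, so the order of the sums rests on this gene. Aqp3 was at 199, 147 and 214 CPM. The 2 called markers were lowest in replicate 3, Avpr2 at 37.4, 38.6 and 34.1 CPM and Aqp4 at 28.6, 32.7 and 26.2 CPM. For the thick ascending limb list replicate 3 had the lowest sum of its group, 7605 CPM, against 7832 and 7785 CPM in replicates 1 and 2. For proximal tubule markers, of which 13 of 14 had fold changes below 0 (median -0.27, 0 passing), that replicate was at 50344 CPM, against 35633 and 31818 CPM in the other PT-I-PpoI libraries. The androgen-responsive gene Kap made up 61.9% of this sum. The part of these markers in the Hox values was not tested. Other lists had 0 genes passing, with medians of 0.20 over 7 podocyte genes, 0.12 over 7 endothelial genes, 0.11 over 7 stromal genes, 0.33 over 5 smooth muscle genes, 0.40 over 6 urothelial genes, -0.005 over 8 leukocyte genes and -0.16 over 7 distal convoluted tubule genes.

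**Figure D4:**
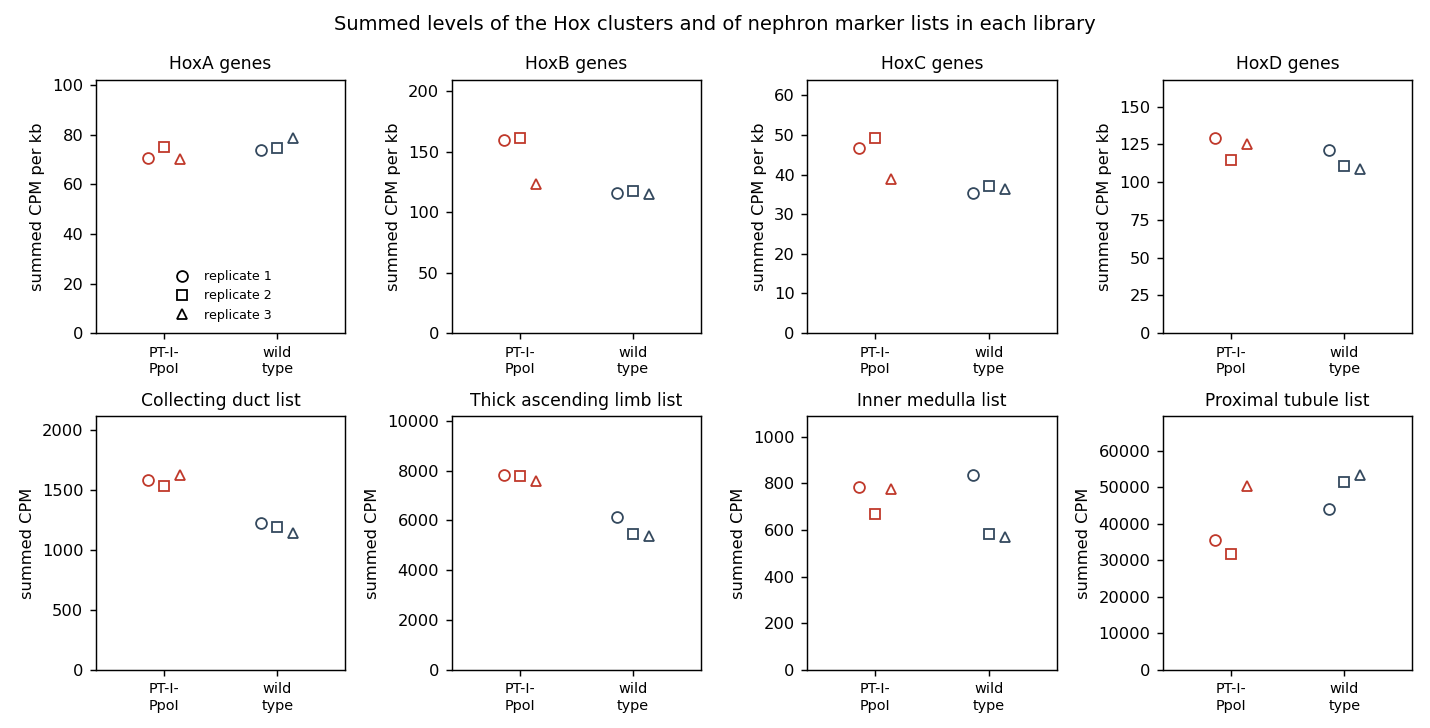
Summed level of each Hox cluster in CPM per kb (upper row) and of 4 nephron marker lists in CPM (lower row), with 1 symbol per library and one shape per replicate number, PT-I-PpoI left of wild type. The PT-I-PpoI replicate 3 triangle lies below its group for HoxB and HoxC and with its group for the collecting duct and thick ascending limb lists.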

How the data were processed

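RNA-seq of kidney cortex was measured in 3 PT-I-PpoI and 3 wild type libraries, made with a stranded kit for mRNA and mapped with HISAT2, per the labels' protocols. The authors deposited raw read pair counts for 24421 genes, and per the file headers featureCounts 1.5.2 counted pairs over exons. The header sets no strand option, so overlapping genes on opposite strands cannot be told apart, and no option for reads that map to several places. The header names mm10, the labels mm9. All 39 Hox genes overlapped their GRCm38.p6 (mm10) position, so positions are mm10. The authors also deposited log2 values (rlog), used only in an alternative.

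Counts were analysed in R 4.3.3 with edgeR 4.0.16 on all genes kept by its expression filter (minimum count 10), 13977 genes, with TMM scaling, the quasi-likelihood test, two-sided, and Benjamini-Hochberg adjustment at 0.05. The fit was also run on simulated counts. They held no effect of the name form, so they cannot show how it bears on the calls. CPM uses TMM-adjusted totals, and differences within name forms are of log2(CPM + 0.5). Alternatives used DESeq2 1.42.0 and limma 3.58.1, other size factors and filters, extra terms and leaving out each library.

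The Hox genes and gene lists were chosen with earlier results of these data known. Values in every library are given for any Hox gene that passed (none did), the 3 highest per cluster by level per length, the 5 with the smallest p and the tested ones of groups 10 and 11. For other lists, means or adjusted p-values are given for the 2 genes with the smallest p and any that passed. Lists of cell types outside the collecting duct, thick ascending limb and inner medulla are given by counts or medians. Any other gene named was chosen after its values were seen. Of the tested Hox genes, 1 is not reported here on its own. Sequences are from RefSeq, and motifs were searched on both strands.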

Additional observations from a re-analysis of the deposited data

How the results depend on the processing

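No Hox gene was called lower under any of the 15 alternatives run, and the count called higher was 0 except by DESeq2 (2) and without PT-I-PpoI replicate 3 (5), the cause of which was not tested. Leaving out each library gave 0 to 5 Hox genes higher, and 0 to 261 of all genes higher and 0 to 364 lower. The sign of the log2 fold changes of the 16 Hox genes described by library was kept in 239 of 240 alternative values. The exception was Hoxd9 without PT-I-PpoI replicate 2, and its values were -0.034 to 0.0067 when libraries were left out. Over all genes, edgeR called 19 higher and 0 lower. It called 44 higher and 3 lower with no filter on low counts, and 49 higher and 15 lower with the name form as a term. DESeq2 called 126 higher and 59 lower, and limma on the rlog values 1 higher. With the replicate number as a block, edgeR called 33 higher and 7 lower of all genes and 0 of the Hox genes. Same-numbered libraries correlated at 0.22, -0.13 and 0.16 in their deviations from group means. PT-I-PpoI replicates 2 and 3 and wild type replicate 2 did not correlate best with their own numbers. Library names end in the same number for replicate 1 of both groups, which correlated at 0.22. They also do for PT-I-PpoI replicate 3 and wild type replicate 2, which correlated at 0.18. These were the highest values of all pairings between the groups. With 3 libraries per group, these values cannot show whether any libraries are paired. Per length, Hoxa11 was at 1.05 CPM per kb with its whole exon length, against 1.40 with unshared exon. Hoxd11 had the largest standard error of the tested Hox genes, 0.41 on the log2 scale, with counts of 77, 65 and 17 in PT-I-PpoI and 33, 34 and 35 in wild type.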
